A study of Mus musculus with 4 samples.

Results

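The solute carriers are the largest group of membrane transporter genes, numbered by family from Slc1 upwards, and those expressed in leukaemic mouse cells with and without Tet2 are described here. Members were the rows named Slc plus a digit that reached 1 TPM (transcript abundance, corrected for transcript length and scaled to a fixed library total) in at least 2 of 4 libraries. The iron and manganese carriers Slc40a1, Slc11a1 and Slc11a2, pseudogenes (-ps) and antisense names ending in os were dropped. Of 24497 mouse gene rows, 376 carried such a name, 367 were left after the exclusions, and 187 in 43 families reached the expression threshold. The members were chosen by their measured TPM over all 4 libraries, with no regard to the group labels. With 2 libraries per group, a gene could reach the threshold through 1 group alone, as 25 members did. The choice was therefore not independent of the difference between the groups. A few names are not transporters: Slc9a3r1 and Slc9a3r2 are adaptor proteins that bind a sodium/proton exchanger, and Slc4a1ap is an adaptor of an anion exchanger.

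Both groups were NRAS/AE9a leukaemic cells, made from haematopoietic stem cells of the bone marrow with NRAS and AE9a, a truncated form of the AML1-ETO fusion, and both are labelled AML cells. The donors of one group were Tet2-/- mice (labelled Tet2 KO, 2 libraries) and those of the other were wild type (labelled WT, 2 libraries). Tet2 encodes an enzyme that oxidises 5-methylcytosine in DNA. All cells were grown with IL-3 and IL-6 at 10 ng/ml and SCF at 50 ng/ml, under selection with puromycin (2 µg/ml) and G418 (1 mg/ml). They were transplanted into B6.SJL recipients carrying CD45.1, aged 6 to 8 weeks and irradiated with 900 cGy, and CD45.2 cells were enriched from the spleen before mRNA sequencing. The labels name no Cre or promoter that would limit the Tet2 deletion to a lineage, and the enrichment keeps donor-derived blood cells of any type. Whether a group's libraries are separate mice is not stated in the labels, so a p-value covers only how far the libraries lie apart, and that distance may be technical.

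Solute carriers move nutrients, ions, cofactors and waste products across the plasma membrane and the membranes of mitochondria, lysosomes, the Golgi apparatus and vesicles. Some exchange one substrate for another, some couple uptake to sodium or protons, and some need a partner protein, such as the heavy chain Slc3a2 that carries the amino acid exchangers of family 7 to the cell surface. In blood cells they supply glucose, glutamine, cystine, iron, copper and phosphate for growth, and in the endolysosomes of myeloid cells they release the products of digestion.

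The libraries had 1 TPM or more for 11300 to 11467 genes. Tet2 itself stood at 63.7 and 68.1 TPM in libraries labelled Tet2 KO and at 43.5 and 43.7 TPM in WT. It was thus not lower, and since a whole-gene value does not show whether part of the transcript is missing, it does not check the deletion; every direction below rests on the labels. By a robust estimate the libraries labelled Tet2 KO differed from each other by 6.08 times the variance of read sampling, whereas the WT libraries differed by 1.14 times and were averaged as 1 sample. Without robust estimation the ratios were 47.5 for libraries labelled Tet2 KO and 2.38 for WT. The spread therefore comes from the 2 libraries labelled Tet2 KO alone. Xist, transcribed from the inactive X chromosome, was 86.1 and 28.2 TPM in libraries labelled Tet2 KO and 0.34 TPM in both WT libraries. Neutrophil granule genes summed to 107230 and 85988 TPM in libraries labelled Tet2 KO, against 1659 and 1696 TPM in WT, with 10 higher of the 11 at 1 TPM in a library of each group. Of 12 interferon-induced genes, the 11 at 1 TPM in both groups were all lower, and the list summed to 122 and 135 TPM in libraries labelled Tet2 KO, against 9652 and 9709 TPM in WT. Of 11 monocyte and macrophage genes tested, 7 were lower and 1 higher (1694 and 1698 TPM, against 3134 and 3153 TPM in WT), and 5 of 5 dendritic cell genes at 1 TPM in both groups were lower (63.8 and 44.9 TPM, against 432 and 436 TPM in WT, with Batf3 at 0 in WT). Mast cell and basophil genes summed to 174 and 179 TPM in libraries labelled Tet2 KO, against 4.07 and 4.73 TPM in WT, where Fcer1a and Prss34 were at 0. Erythroid genes summed to 25.4 and 47.8 TPM in libraries labelled Tet2 KO, against 4.10 and 2.44 TPM in WT, where 5 were at 0. Stem and progenitor genes summed to 265 and 327 TPM, against 105 TPM in both WT libraries, where Hoxa9 and Gata1 were at 0. Mpo made up most of that sum, with 203 and 253 TPM in libraries labelled Tet2 KO, against 11.8 and 10.8 TPM in WT. Of the 4 stem and progenitor genes at 1 TPM in both groups, Mpo and Elane were called higher and Cd34 and Myb lower. Megakaryocyte genes summed to 14.01 and 20.7 TPM, against 4.19 and 3.48 TPM in WT, and stromal and endothelial genes to 80.2 and 77.5 TPM, against 53.1 and 52.9 TPM in WT. T, B and NK cell lists stayed at or below 10.1 TPM in every library, with Pax5 and Ncr1 at 0 in libraries labelled Tet2 KO and Ncr1, Klrb1c and Gzma at 0 in WT. The part of these cell types in any solute carrier difference was not tested. In bulk RNA, fewer cells of a type and less RNA per cell cannot be told apart.

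Solute carriers differed in both directions, while their summed level did not separate the groups. That sum was 8408 and 7996 TPM in libraries labelled Tet2 KO, against 8028 and 8049 TPM in WT, so the groups overlapped. A model fitted with limma on log2(TPM + 1), with Benjamini-Hochberg adjustment over 11919 genes and a threshold of 0.05, called 45 of 187 members higher in libraries labelled Tet2 KO and 57 lower. Those counts are 24.1% and 30.5% of the members, beside 22.1% higher and 26.7% lower over all genes tested.

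Some members cleared the expression threshold only through the group where they were high. For 25 members (13.4%, beside 8.94% of all genes tested) 1 TPM was reached in libraries of a single group, in 18 cases the group labelled Tet2 KO and in 7 cases WT, and those described singly are given by their levels with no test. Their calls enter the counts over all 187 members, from which nothing is read here. The counts and medians of classes, families, promoters and gene lists leave such members and genes out. The summed TPM of members, classes and gene lists keeps them. Those at no more than 5.69 TPM in every library include Slc15a2, Slc18a1, Slc22a18, Slc22a21, Slc23a1, Slc23a3, Slc25a27, Slc26a1 and Slc45a3, which reached 1 TPM only in libraries labelled Tet2 KO, and Slc16a7, Slc25a47 and Slc29a2, which did so only in WT. Among the 162 members that reached 1 TPM in a library of each group, 31 were called higher and 51 lower. That is 19.1% and 31.5%, where the same kind of gene was called higher in 19.6% and lower in 25.3% of 10853 cases, the shares against which the counts of each class stand. The median log2 change of these members was -0.14, beside -0.12 over those genes. The libraries of the 2 groups did not overlap for any of the 82 called. The same held for 2123 of the 2127 genes called higher and 2741 of the 2744 called lower at 1 TPM in both groups.

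The direction of weaker differences depended on the scale. The ERCC spike-in RNAs, whose added amount no label gives, took 2.95% and 3.19% of the transcripts in libraries labelled Tet2 KO, against 4.66% and 4.62% in WT. Scaling each library to its ERCC total moved the median log2 change of all genes to 0.43. On that scale 79 of all 187 members were called higher and 37 lower, with 41.5% of all genes called higher and 12.5% lower. Over all genes tested, the share of calls that were higher moved to 76.8%, beside 45.2% on TPM. Among the members at 1 TPM in both groups, 62 were called higher and 31 lower with ERCC scaling, beside 31 higher and 51 lower on TPM. All 31 of these called higher on TPM were called higher there too. The 51 called lower stayed below 0, and 31 of them stayed called. The 20 that did not lay between -0.62 and -0.05 (log2 change on the ERCC scale) and include Slc2a8, Slc7a8, Slc20a2, Slc24a5, Slc25a13, Slc25a17, Slc25a26, Slc25a51, Slc30a6, Slc35a1, Slc35b1, Slc35b4, Slc35f6, Slc38a7, Slc39a1, Slc39a4, Slc39a6, Slc48a1 and Slc50a1. A sign change between the scales was seen for 39 members, none of them called on TPM.

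**Figure D1:**
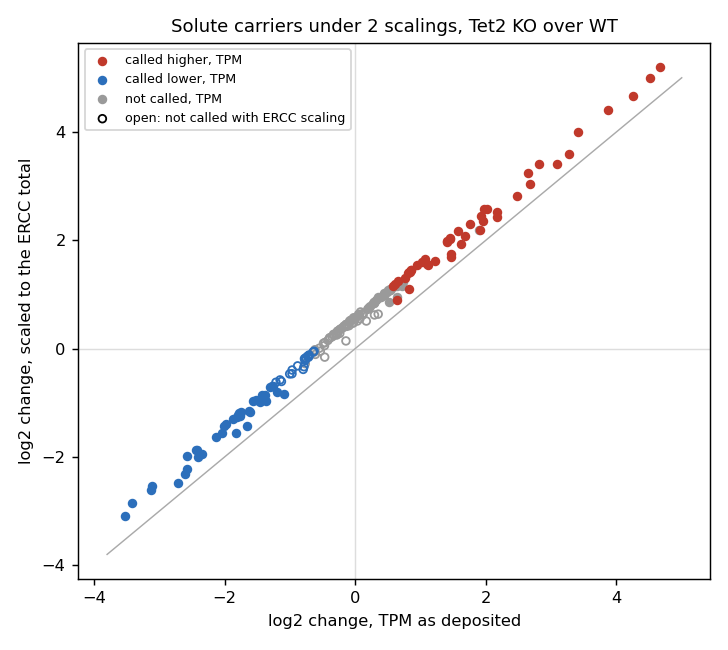
Log2 change of each member, libraries labelled Tet2 KO over WT, on TPM as deposited (x axis) and after scaling to the ERCC total (y axis). Colours give the limma call on TPM, open symbols the members not called after scaling, and the line equal values; every point lies above the line, and the 25 members at 1 TPM in libraries of 1 group only are included.

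Of the families with at least 2 members at 1 TPM in both groups (30), 8 held such members called in opposite directions, 10 members called only higher, 9 only lower, and 3 held no call. The classes below group whole families by what they mainly carry, so a single member may carry something else. The differences within each class ran both ways in most.

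**Figure D2:**
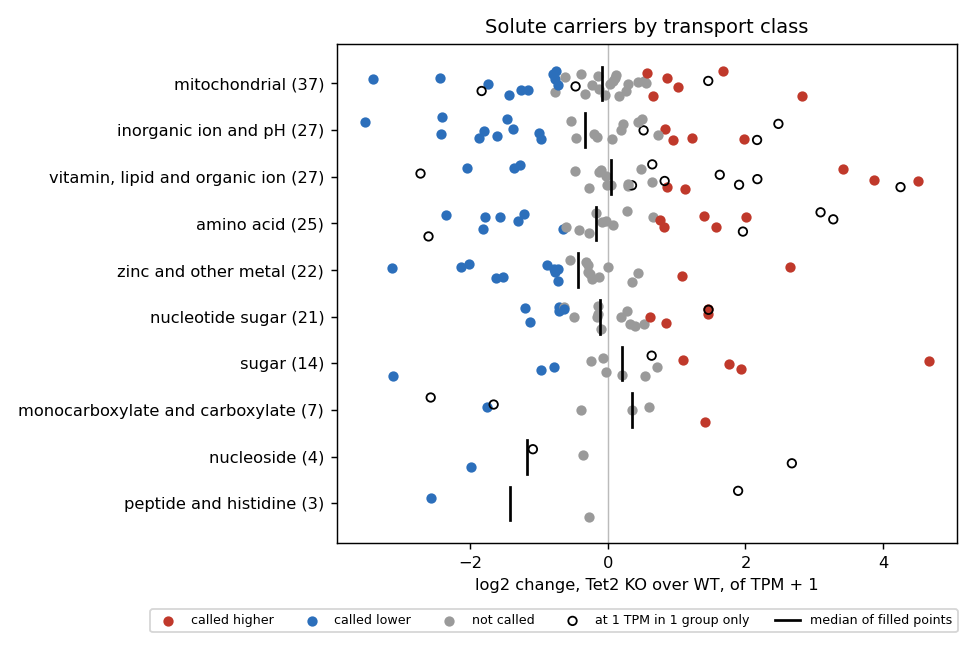
Log2 change of TPM + 1, libraries labelled Tet2 KO over WT, for each of 187 members by class, with the number of members in brackets. Red points were called higher, blue points lower and grey points neither by limma at an adjusted p of 0.05; open points are the 25 members at 1 TPM in libraries of 1 group only, drawn without their call, and black bars are the class medians of the other members.

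Among the amino acid carriers the exchangers that share the partner Slc3a2 differed in direction. Of 21 members at 1 TPM in both groups, 5 were called higher, 7 lower and 9 neither (-0.61 to 0.65), and the class summed to 1950 and 1760 TPM in libraries labelled Tet2 KO, against 1910 and 1915 TPM in WT. Their median log2 change was -0.17, and 0.41 with ERCC scaling. Slc3a2, the heavy chain of these exchangers, measured 206 and 219.95 TPM in libraries labelled Tet2 KO, against 227 and 224 TPM in WT. Slc3a2 did not pass the test, although its groups did not overlap (log2 change -0.08 ± 0.22 SE, limma adjusted p = 0.771). Slc7a11, which imports cystine for glutathione in exchange for glutamate, measured 57.7 and 50.5 TPM in libraries labelled Tet2 KO, against 12.8 and 12.5 TPM in WT. Slc7a11 thus lay above both WT values in both libraries labelled Tet2 KO (log2 change 2.01 ± 0.21 SE, limma adjusted p = 9.71e-07). Slc7a5, which imports large neutral amino acids such as leucine, measured 48.96 and 57.8 TPM in libraries labelled Tet2 KO, against 187 and 184 TPM in WT. Slc7a5 was lower in libraries labelled Tet2 KO, with no overlap (log2 change -1.78 ± 0.20 SE, limma adjusted p = 1.94e-06). Slc7a7, which exchanges cationic for neutral amino acids, measured 9.33 and 11.3 TPM in libraries labelled Tet2 KO, against 38.3 and 39.2 TPM in WT. Slc7a7 was lower in both libraries labelled Tet2 KO than in either WT library (log2 change -1.82 ± 0.26 SE, limma adjusted p = 2.79e-05). Slc7a6, a close relative of Slc7a7, measured 16.7 and 20.03 TPM in libraries labelled Tet2 KO, against 24.5 and 25.03 TPM in WT. Slc7a6 did not pass the test, although its groups did not overlap (log2 change -0.42 ± 0.24 SE, limma adjusted p = 0.167).

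The promoters of Slc7a11 and Slc7a7 are shown because both hold the letters TGATGNAA, the motif of the CEBP-ATF response element through which amino acid shortage acts on Slc7a11, while their RNA differed in opposite directions. The sequences are the 250 bases before a RefSeq transcription start on GRCm38.p6, 5′ to 3′ on the gene's strand, with the motif in capitals. The Slc7a11 window is chr3:50443614-50443863 on the minus strand and holds the motif on both strands, the first 66 bases before the start. The Slc7a7 window is chr14:54417945-54418194 on the minus strand, 1 of 5 listed starts, with the motif 141 bases before it; the motif is also in the window of a second start.
Slc7a11: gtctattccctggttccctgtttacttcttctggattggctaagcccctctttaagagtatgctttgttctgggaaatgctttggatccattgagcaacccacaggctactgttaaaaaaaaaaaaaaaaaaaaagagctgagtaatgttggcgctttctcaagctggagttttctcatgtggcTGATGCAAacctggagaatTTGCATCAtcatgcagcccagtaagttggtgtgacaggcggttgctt
Slc7a7: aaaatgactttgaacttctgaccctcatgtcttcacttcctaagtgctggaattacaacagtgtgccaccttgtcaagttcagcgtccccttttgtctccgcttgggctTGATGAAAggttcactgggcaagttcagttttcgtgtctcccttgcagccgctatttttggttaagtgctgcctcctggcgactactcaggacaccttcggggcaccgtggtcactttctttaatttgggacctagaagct
Among the members at 1 TPM in both groups with a listed promoter, TGATGNAA on either strand was found in 1 of 23 called higher, 3 of 40 called lower and 0 of 63 not called, beside 2.47% of 8370 genes at 1 TPM in both groups. A match of letters is a description and no evidence of binding.

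Glutamine and small neutral amino acid carriers also differed in direction. Slc38a2, a sodium-coupled carrier of alanine, serine and glutamine, measured 491 and 422 TPM in libraries labelled Tet2 KO, against 151 and 153 TPM in WT. Slc38a2 thus lay above both WT values in both libraries labelled Tet2 KO (log2 change 1.57 ± 0.23 SE, limma adjusted p = 4.39e-05). It ranked second among the 187 members in both libraries labelled Tet2 KO and rank 13 in WT. Slc38a1, its neighbour on chromosome 15 with a similar range of substrates, measured 72.7 and 74.2 TPM in libraries labelled Tet2 KO, against 73.7 and 75.8 TPM in WT. Slc38a1 overlapped between the groups and did not pass the test (log2 change -0.02 ± 0.19 SE, limma adjusted p = 0.926). Slc1a5, which exchanges glutamine for other neutral amino acids, measured 67.6 and 79.9 TPM in libraries labelled Tet2 KO, against 181 and 185 TPM in WT. Slc1a5 was lower in libraries labelled Tet2 KO, with no overlap (log2 change -1.30 ± 0.20 SE, limma adjusted p = 6.43e-05). Slc1a4, its relative for alanine, serine and threonine, measured 0.66 and 1.11 TPM in libraries labelled Tet2 KO, against 8.23 and 8.83 TPM in WT. Slc1a4 was lower in both libraries labelled Tet2 KO than in either WT library (log2 change -2.35 ± 0.29 SE, limma adjusted p = 7.36e-06). Slc6a6, the taurine carrier, was among the 5 most abundant members in every library, at 378 and 275 TPM in libraries labelled Tet2 KO, against 305 and 304 TPM in WT. Slc6a6 overlapped between the groups and did not pass the test (log2 change 0.08 ± 0.25 SE, limma adjusted p = 0.812).

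Members of the amino acid class that reached 1 TPM in 1 group included carriers of GABA and betaine. Slc6a13, a GABA carrier, measured 10.7 and 8.79 TPM in libraries labelled Tet2 KO, against 0.05 and 0.16 TPM in WT. Slc6a12, which carries betaine and GABA and lies 5343 bases from Slc6a13 on chromosome 6, measured 6.56 and 5.26 TPM in libraries labelled Tet2 KO, against 0.79 and 0.74 TPM in WT. Slc7a2, a carrier of arginine and other cationic amino acids, measured 8.08 and 8.23 TPM in libraries labelled Tet2 KO, against 0.09 and 0.06 TPM in WT. In the opposite direction, Slc6a9, the glycine carrier, measured 0.25 and 0.1 TPM in libraries labelled Tet2 KO, against 5.76 and 6.49 TPM in WT. The 4 were below 1 TPM in one group and between 5.26 and 10.7 TPM in the other. Slc7a1 and Slc6a8 were chosen after their values were seen. Slc7a1, another arginine carrier, measured 25.1 and 33.2 TPM in libraries labelled Tet2 KO, against 87.1 and 86.9 TPM in WT. Slc7a1 thus lay below both WT values in both libraries labelled Tet2 KO (log2 change -1.56 ± 0.21 SE, limma adjusted p = 2.78e-05). Slc6a8, the creatine carrier, measured 45.8 and 45.7 TPM in libraries labelled Tet2 KO, against 16.8 and 16.6 TPM in WT. Slc6a8 was higher in libraries labelled Tet2 KO, with no overlap (log2 change 1.40 ± 0.21 SE, limma adjusted p = 3.9e-05). Of the other members placed in the amino acid class by family number, Slc38a6 and Slc43a3 (log2 changes of 0.77 and 0.81) were called higher. Slc7a8 and Slc38a7 (log2 changes of -1.21 and -0.65) were called lower.

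**Figure D3:**
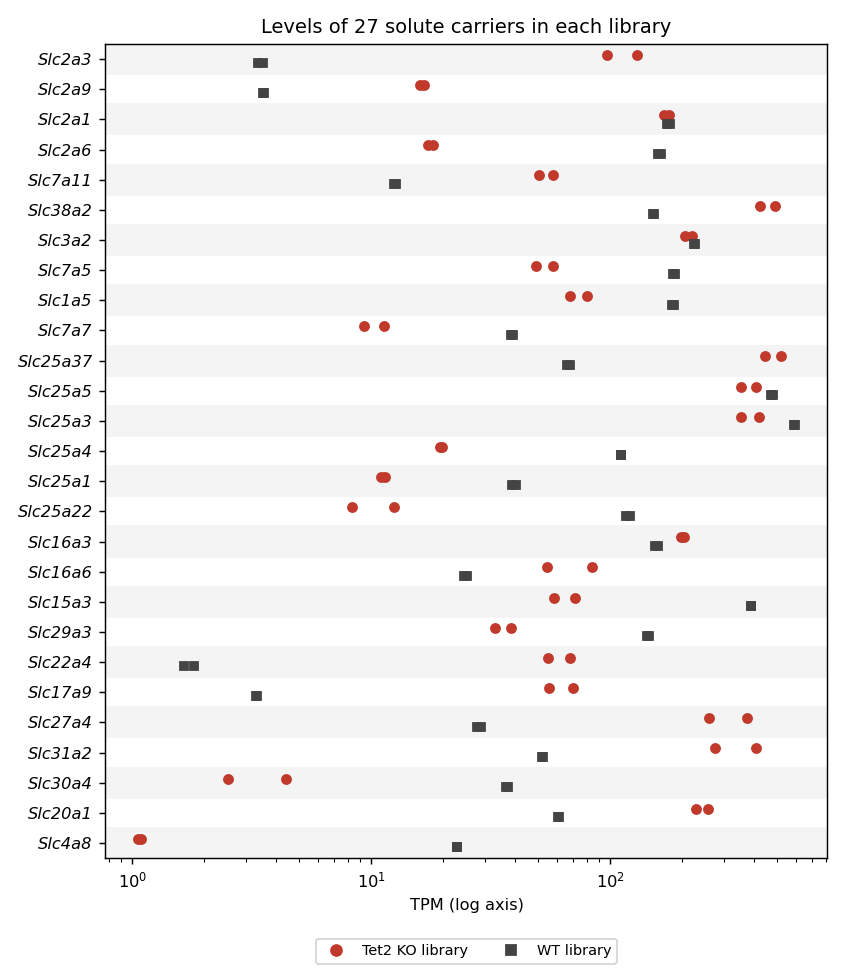
TPM on a log axis of 27 members in each library, red circles for libraries labelled Tet2 KO and dark squares for WT. WT squares nearly coincide for each gene; Slc2a1 and Slc3a2 lie side by side in both groups, whereas Slc2a3, Slc22a4 and Slc17a9 lie far to the right, and Slc25a22 and Slc4a8 far to the left, in libraries labelled Tet2 KO.

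The hexose carriers of family 2 differed strongly in both directions, and the most abundant of them did not pass the test. Slc2a1, GLUT1, the general glucose importer, measured 168 and 177 TPM in libraries labelled Tet2 KO, against 177 and 174 TPM in WT. Slc2a1 overlapped between the groups and did not pass the test (log2 change -0.02 ± 0.21 SE, limma adjusted p = 0.935). Slc2a3, GLUT3, a high-affinity glucose importer of neurons and white blood cells, measured 129 and 96.9 TPM in libraries labelled Tet2 KO, against 3.37 and 3.52 TPM in WT. Slc2a3 was higher in both libraries labelled Tet2 KO than in either WT library (log2 change 4.67 ± 0.22 SE, limma adjusted p = 4.02e-10). On the log2(TPM + 1) scale that was the highest change among members at 1 TPM in both groups, while without the pseudocount Slc22a4 was above it (log2 ratio of mean TPM 5.15 for Slc22a4 and 5.04 for Slc2a3). Slc2a3 lies at chr6:122727809-122801640 on the minus strand (mm10, GENCODE M21). Slc2a6, GLUT6, a lysosomal hexose carrier of macrophages, measured 18.2 and 17.2 TPM in libraries labelled Tet2 KO, against 159 and 163 TPM in WT. Slc2a6 thus lay below both WT values in both libraries labelled Tet2 KO (log2 change -3.11 ± 0.20 SE, limma adjusted p = 3.75e-09). The gene lies at chr2:27021363-27027998 on the minus strand. Slc2a9, a carrier of urate, measured 15.9 and 16.7 TPM in libraries labelled Tet2 KO, against 3.52 and 3.55 TPM in WT. Slc2a9 was higher in libraries labelled Tet2 KO, with no overlap (log2 change 1.93 ± 0.28 SE, limma adjusted p = 3.67e-05). Slc50a1, a sugar carrier of the SWEET family, measured 14.8 and 17.6 TPM in libraries labelled Tet2 KO, against 32.4 and 32.5 TPM in WT. Slc50a1 was lower in both libraries labelled Tet2 KO than in either WT library (log2 change -0.97 ± 0.24 SE, limma adjusted p = 0.00363). This call was lost with ERCC scaling. Among 13 sugar class members at 1 TPM in both groups, 4 were called higher, 3 lower and 6 neither (-0.24 to 0.71), and the class summed to 497 and 470 TPM in libraries labelled Tet2 KO and 499 and 502 TPM in WT. Of the other sugar carriers, Slc5a3 and Slc37a1 (log2 changes of 1.10 and 1.76) were called higher, and Slc2a8 (a log2 change of -0.78) was called lower. The median log2 change of those 13 was 0.21, and 0.77 with ERCC scaling.

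Mitochondrial carriers, family 25, were the largest class with 37 members, and they summed to 1941 and 2037 TPM in libraries labelled Tet2 KO, against 2129 and 2143 TPM in WT. Of the 34 at 1 TPM in both groups, 6 were called higher, 10 lower and 18 neither, with values of -0.77 to 0.55 among those not called. The median log2 change of the 34 was -0.09, and 0.46 with ERCC scaling. Slc25a37, mitoferrin 1, which brings iron into mitochondria for haem and iron-sulfur clusters, measured 517 and 445 TPM in libraries labelled Tet2 KO, against 66.1 and 68.1 TPM in WT. Slc25a37 thus lay above both WT values in both libraries labelled Tet2 KO (log2 change 2.82 ± 0.23 SE, limma adjusted p = 5.2e-08). It ranked first among the members in both libraries labelled Tet2 KO and rank 33 in both WT libraries. Slc25a3, the phosphate carrier, first in WT, measured 351 and 419 TPM in libraries labelled Tet2 KO, against 591 and 587 TPM in WT. Slc25a3 did not pass the test, although its groups did not overlap (log2 change -0.62 ± 0.25 SE, limma adjusted p = 0.05002). The 5 TPM filter put Slc25a3 below the threshold at an adjusted p of 0.0441 and a pseudocount of 0.1 at 0.0457, while scaling to the ERCC total gave a log2 change of -0.02.

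The adenine nucleotide exchangers, which swap ATP made in mitochondria for ADP, were unequal. Slc25a4, the isoform most abundant in heart and muscle, measured 19.4 and 19.8 TPM in libraries labelled Tet2 KO, against 111 and 111 TPM in WT. Slc25a4 was lower in libraries labelled Tet2 KO, with no overlap (log2 change -2.44 ± 0.20 SE, limma adjusted p = 7.36e-08). Slc25a5, the isoform of dividing cells, measured 352 and 406 TPM in libraries labelled Tet2 KO, against 471 and 481 TPM in WT. Slc25a5 did not pass the test, although its groups did not overlap (log2 change -0.33 ± 0.24 SE, limma adjusted p = 0.273). Slc25a1, the citrate carrier, measured 10.9 and 11.4 TPM in libraries labelled Tet2 KO, against 40.5 and 38.9 TPM in WT. Slc25a1 was lower in both libraries labelled Tet2 KO than in either WT library (log2 change -1.74 ± 0.25 SE, limma adjusted p = 2.83e-05). Slc25a22, a glutamate carrier, measured 8.35 and 12.5 TPM in libraries labelled Tet2 KO, against 117 and 121 TPM in WT. Slc25a22 thus lay below both WT values in both libraries labelled Tet2 KO (log2 change -3.41 ± 0.26 SE, limma adjusted p = 8.42e-08). That was the lowest log2 change among the 34 mitochondrial members at 1 TPM in both groups. Slc25a18, its relative for glutamate, measured 6.93 and 3.97 TPM in libraries labelled Tet2 KO, against 0.76 and 1.17 TPM in WT. Slc25a18 was higher in libraries labelled Tet2 KO, with no overlap (log2 change 1.68 ± 0.34 SE, limma adjusted p = 0.000945). Slc25a24, an exchanger of ATP-magnesium and phosphate, measured 94.5 and 105 TPM in libraries labelled Tet2 KO, against 52.98 and 56.3 TPM in WT. Slc25a24 was higher in both libraries labelled Tet2 KO than in either WT library (log2 change 0.86 ± 0.19 SE, limma adjusted p = 0.00178). Slc25a45, a member with less defined substrates, measured 54.9 and 47.5 TPM in libraries labelled Tet2 KO, against 25.5 and 23.8 TPM in WT. Slc25a45 thus lay above both WT values in both libraries labelled Tet2 KO (log2 change 1.02 ± 0.20 SE, limma adjusted p = 0.000564). Slc25a23, another ATP-magnesium carrier, reached 1 TPM in one group only, with 0.19 and 0.31 TPM in libraries labelled Tet2 KO, against 3.37 and 3.52 TPM in WT. Of the remaining family 25 members, Slc25a44 and Slc25a36 (log2 changes of 0.58 and 0.66) were called higher, and Slc25a12, Slc25a30, Slc25a26, Slc25a13, Slc25a51 and Slc25a17 (log2 changes of -0.72 to -1.43) were called lower.

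The promoter of Slc25a22 is shown since it holds the letters GAAANNGAA, which make up the core of the interferon-stimulated response element, and 11 interferon-induced genes were lower in the same libraries. The window is chr7:141435376-141435625 on the minus strand, the 250 bases before 1 of 3 RefSeq starts on GRCm38.p6, with the motif 79 bases before it in capitals. The Slc6a12 window, chr6:121342826-121343075 on the plus strand, holds the same letters on the other strand 158 bases before the start. The windows of its other listed starts lack them. Slc6a12 is shown as a gene that was high where the interferon-induced genes were low. It reached 1 TPM only in libraries labelled Tet2 KO, so the counts below leave it out.
Slc25a22: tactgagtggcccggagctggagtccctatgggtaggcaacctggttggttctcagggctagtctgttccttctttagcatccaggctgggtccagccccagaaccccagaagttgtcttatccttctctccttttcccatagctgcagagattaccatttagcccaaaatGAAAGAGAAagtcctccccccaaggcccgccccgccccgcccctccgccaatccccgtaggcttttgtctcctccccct
Slc6a12: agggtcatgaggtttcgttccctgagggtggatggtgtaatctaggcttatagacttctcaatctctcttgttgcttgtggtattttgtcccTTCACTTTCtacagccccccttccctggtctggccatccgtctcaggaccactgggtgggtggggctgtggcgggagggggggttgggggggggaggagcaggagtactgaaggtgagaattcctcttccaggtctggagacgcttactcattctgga
The letters GAAANNGAA were found in 1 of 23 promoters of members called higher (Slc37a1), 3 of 40 called lower and 4 of 63 not called, beside 7.56% of the 8370 genes. The E-box CACGTG was found in 4, 6 and 12 of those promoters, beside 10.2% of the 8370 genes. The 3 motifs share no full overlap with one another, and the shares say nothing on the factors that bind them.

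Monocarboxylate carriers, which move lactate, pyruvate and ketone bodies together with protons, summed with the dicarboxylate carriers of the class to 352 and 353 TPM in libraries labelled Tet2 KO, against 300.2 and 293 TPM in WT. Slc16a3, MCT4, the lactate exporter of glycolytic cells and the most abundant of the class, measured 199 and 203 TPM in libraries labelled Tet2 KO, against 159 and 154 TPM in WT. Slc16a3 did not pass the test, although its groups did not overlap (log2 change 0.36 ± 0.21 SE, limma adjusted p = 0.179). Slc16a1, MCT1, which moves lactate in either direction, measured 13.1 and 21.7 TPM in libraries labelled Tet2 KO, against 10.6 and 10.8 TPM in WT. Slc16a1 did not pass the test, although its groups did not overlap (log2 change 0.61 ± 0.31 SE, limma adjusted p = 0.126). Slc16a6, a monocarboxylate family member, measured 83.97 and 54.2 TPM in libraries labelled Tet2 KO, against 25.2 and 24.5 TPM in WT. Slc16a6 was higher in libraries labelled Tet2 KO, with no overlap (log2 change 1.41 ± 0.25 SE, limma adjusted p = 0.00128). Slc13a3, a sodium-coupled carrier of dicarboxylates such as succinate, measured 3.8 and 3.4 TPM in libraries labelled Tet2 KO, against 15.6 and 13.5 TPM in WT. Slc13a3 was lower in both libraries labelled Tet2 KO than in either WT library (log2 change -1.76 ± 0.30 SE, limma adjusted p = 0.000188). Slc16a13, a monocarboxylate family member, reached 1 TPM in one group only, with 0.43 and 0.44 TPM in libraries labelled Tet2 KO, against 7.56 and 7.5 TPM in WT. The class counted 5 members at 1 TPM in both groups, with 1 higher, 1 lower and 3 neither (-0.39 to 0.61). Their median log2 change was 0.36, and 0.95 with ERCC scaling.

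The lysosomal carriers Slc15a3, for peptides, and Slc29a3, for nucleosides, were above 100 TPM in WT and were lower in libraries labelled Tet2 KO. Slc15a3, which brings histidine and small peptides, including bacterial muramyl dipeptide, out of endolysosomes, measured 71.1 and 58.3 TPM in libraries labelled Tet2 KO, against 387 and 388 TPM in WT. Slc15a3 thus lay below both WT values in both libraries labelled Tet2 KO (log2 change -2.57 ± 0.21 SE, limma adjusted p = 5.87e-08). It was the third most abundant member in WT and ranked 28 and 33 in libraries labelled Tet2 KO, and it accounts for most of the class sum of 113 and 92.4 TPM there, against 429 TPM in both WT libraries. Slc15a3 lies at chr19:10839727-10859362 on the plus strand and shares exon bases with Tmem132a on the opposite strand, and no label or header gives the strand setting of the counting. Slc15a4, its relative that works with Toll-like receptors in endolysosomes, measured 35.9 and 32.2 TPM in libraries labelled Tet2 KO, against 41.3 and 40.8 TPM in WT. Slc15a4 did not pass the test, although its groups did not overlap (log2 change -0.27 ± 0.20 SE, limma adjusted p = 0.295). Slc29a3, a lysosomal nucleoside carrier, measured 32.9 and 38.6 TPM in libraries labelled Tet2 KO, against 143 and 145 TPM in WT. Slc29a3 was lower in libraries labelled Tet2 KO, with no overlap (log2 change -1.98 ± 0.19 SE, limma adjusted p = 4.7e-07). Slc29a1, the plasma membrane equilibrative nucleoside carrier, measured 18.5 and 20.4 TPM in libraries labelled Tet2 KO, against 25.7 and 24.5 TPM in WT. Slc29a1 did not pass the test, although its groups did not overlap (log2 change -0.35 ± 0.23 SE, limma adjusted p = 0.225). Slc28a2, a sodium-coupled nucleoside carrier, reached 1 TPM in one group only, with 8.37 and 7.09 TPM in libraries labelled Tet2 KO, against 0.36 and 0.37 TPM in WT. Nucleoside carriers as a class summed to 60.0 and 66.6 TPM in libraries labelled Tet2 KO, against 171 and 172 TPM in WT.

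**Figure D4:**
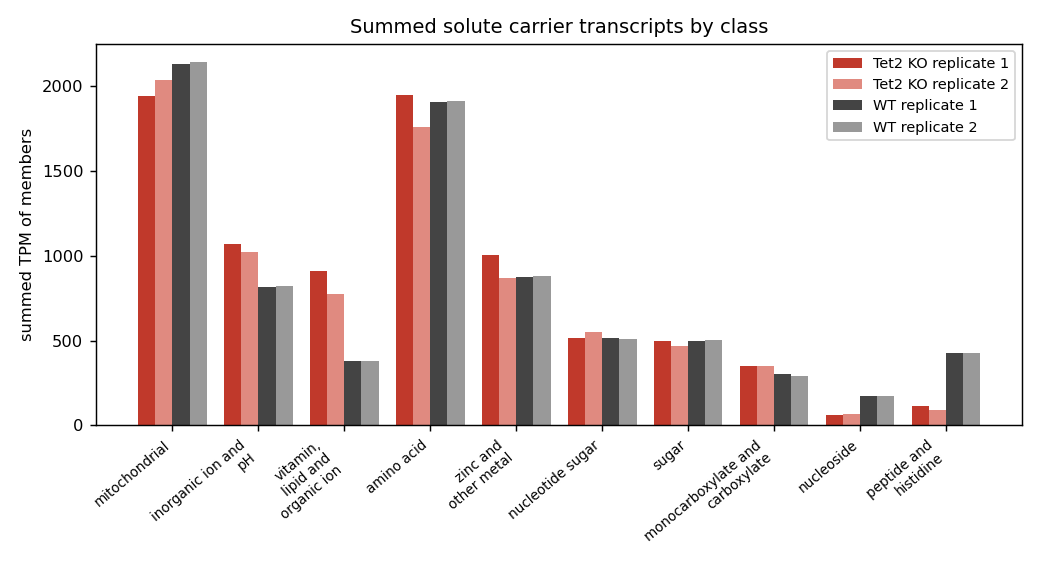
Summed TPM of the members of each class in each library, with red shades for libraries labelled Tet2 KO and grey shades for WT, from 37 members on the left to 3 on the right. The vitamin, lipid and organic ion class is higher (909 and 774 TPM, against 380 TPM in both WT libraries), and the peptide and histidine class lower in libraries labelled Tet2 KO; amino acid and nucleotide sugar sums overlap between the groups.

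Both copper carriers, whose genes lie 62316 bases apart on chromosome 4, were higher, and the zinc carriers that passed the test on TPM were lower. Slc31a1, CTR1, the copper importer at the cell surface, measured 86.5 and 77.5 TPM in libraries labelled Tet2 KO, against 37.9 and 38.8 TPM in WT. Slc31a1 was higher in both libraries labelled Tet2 KO than in either WT library (log2 change 1.08 ± 0.19 SE, limma adjusted p = 0.000222). Slc31a2, CTR2, which works in endolysosomes, measured 406 and 273 TPM in libraries labelled Tet2 KO, against 52.05 and 52.2 TPM in WT. Slc31a2 thus lay above both WT values in both libraries labelled Tet2 KO (log2 change 2.65 ± 0.25 SE, limma adjusted p = 3.27e-06). Of the 22 members of the class, all at 1 TPM in both groups, these 2 were called higher, 10 lower and 10 neither (-0.55 to 0.44). That is 9.09% and 45.5%, beside 19.6% higher and 25.3% lower of all genes at 1 TPM in both groups. With ERCC scaling 4 were called higher, Slc39a7 and Slc41a3 being added, and 5 lower. The class median log2 change was -0.44, and 0.13 with ERCC scaling. Slc30a4, which loads zinc into vesicles, measured 2.51 and 4.4 TPM in libraries labelled Tet2 KO, against 37.4 and 36.7 TPM in WT. Slc30a4 was lower in libraries labelled Tet2 KO, with no overlap (log2 change -3.13 ± 0.33 SE, limma adjusted p = 1.96e-06). Slc39a10, a zinc importer at the cell surface, measured 2.67 and 3.77 TPM in libraries labelled Tet2 KO, against 16.8 and 17.8 TPM in WT. Slc39a10 was lower in both libraries labelled Tet2 KO than in either WT library (log2 change -2.13 ± 0.31 SE, limma adjusted p = 4.14e-05). Slc39a1, a zinc importer too, measured 82.3 and 80.1 TPM in libraries labelled Tet2 KO, against 138 and 142 TPM in WT. Slc39a1 thus lay below both WT values in both libraries labelled Tet2 KO (log2 change -0.78 ± 0.19 SE, limma adjusted p = 0.00368). This call was lost with ERCC scaling. Slc30a1, the zinc exporter at the cell surface, measured 12.8 and 12.7 TPM in libraries labelled Tet2 KO, against 12.6 and 13 TPM in WT. Slc30a1 overlapped between the groups and did not pass the test (log2 change -0.00 ± 0.27 SE, limma adjusted p = 1). Of the remaining metal carriers, Slc39a14, Slc41a1, Slc41a2, Slc39a4, Slc39a6, Slc48a1 and Slc30a6 (log2 changes of -0.72 to -2.01) were called lower.

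Among carriers of inorganic ions and protons a phosphate importer was higher and several carriers of chloride and bicarbonate were lower. Slc20a1, the sodium-phosphate importer PiT1, measured 256 and 229 TPM in libraries labelled Tet2 KO, against 60.4 and 61.02 TPM in WT. Slc20a1 was higher in libraries labelled Tet2 KO, with no overlap (log2 change 1.98 ± 0.21 SE, limma adjusted p = 1.24e-06). Slc9a3r1, NHERF1, the adaptor, was the most abundant name of the class in both groups, with 272 and 231 TPM in libraries labelled Tet2 KO, against 129.54 and 129 TPM in WT. Slc9a3r1 was higher in both libraries labelled Tet2 KO than in either WT library (log2 change 0.95 ± 0.22 SE, limma adjusted p = 0.00222). Slc4a8, a sodium-driven exchanger of chloride and bicarbonate, measured 1.06 and 1.09 TPM in libraries labelled Tet2 KO, against 22.9 and 22.9 TPM in WT. Slc4a8 thus lay below both WT values in both libraries labelled Tet2 KO (log2 change -3.52 ± 0.31 SE, limma adjusted p = 1.28e-07). That was the lowest log2 change among members at 1 TPM in both groups. Slc12a9, of the cation-chloride cotransporter family, measured 5.51 and 5.26 TPM in libraries labelled Tet2 KO, against 31.8 and 34.4 TPM in WT. Slc12a9 was lower in libraries labelled Tet2 KO, with no overlap (log2 change -2.42 ± 0.28 SE, limma adjusted p = 3.45e-06). Slc24a3, a sodium/calcium-potassium exchanger, reached 1 TPM in one group only, with 7.15 and 4.95 TPM in libraries labelled Tet2 KO, against 0.3 and 0.2 TPM in WT. Slc9a3r2, the second adaptor, did likewise, with 4.63 and 6.44 TPM in libraries labelled Tet2 KO, against 0.24 and 0.64 TPM in WT. Of 24 members at 1 TPM in both groups, 4 were called higher, 10 lower and 10 neither (-0.54 to 0.74), while the class sum was 1068 and 1024 TPM in libraries labelled Tet2 KO, against 818 and 825 TPM in WT. The median log2 change of those 24 was -0.33, and 0.25 with ERCC scaling. Of the other ion carriers, Slc26a9 (a log2 change of 1.22) was called higher, and Slc9a7, Slc4a7, Slc12a4, Slc9a9, Slc12a7, Slc9a5, Slc20a2 and Slc24a5 (log2 changes of -0.97 to -2.41) were called lower.

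Carriers of vitamins, lipids and organic ions were the class whose sum differed most in TPM, at 909 and 774 TPM in libraries labelled Tet2 KO and 380 TPM in both WT libraries. That sum includes the members that reached 1 TPM in libraries of 1 group only. Slc22a4, the carrier of the antioxidant ergothioneine, measured 55.2 and 67.7 TPM in libraries labelled Tet2 KO, against 1.64 and 1.81 TPM in WT. Slc22a4 was higher in both libraries labelled Tet2 KO than in either WT library (log2 change 4.51 ± 0.24 SE, limma adjusted p = 5.41e-10). Slc22a4 lies at chr11:53983123-54028090 on the minus strand, beside Slc22a21, which measured 1.15 and 2.12 TPM in libraries labelled Tet2 KO, against 0.68 and 0.63 TPM in WT. Slc22a5, the carnitine carrier next to both, measured 7.58 and 9.9 TPM in libraries labelled Tet2 KO, against 10.2 and 11.2 TPM in WT. Slc22a5 did not pass the test, although its groups did not overlap (log2 change -0.27 ± 0.30 SE, limma adjusted p = 0.466). Slc27a4, FATP4, which takes up long-chain fatty acids and joins them to coenzyme A, measured 375 and 258 TPM in libraries labelled Tet2 KO, against 27.8 and 28.9 TPM in WT. Slc27a4 thus lay above both WT values in both libraries labelled Tet2 KO (log2 change 3.41 ± 0.24 SE, limma adjusted p = 1.68e-07). It was the largest single part of the class sum in libraries labelled Tet2 KO. Slc19a1, the reduced folate carrier, measured 1.89 and 3.25 TPM in libraries labelled Tet2 KO, against 14.2 and 12.7 TPM in WT. Slc19a1 was lower in libraries labelled Tet2 KO, with no overlap (log2 change -2.04 ± 0.33 SE, limma adjusted p = 0.000122). Slc22a15, an organic ion carrier, reached 1 TPM in one group only, with 29.8 and 26.7 TPM in libraries labelled Tet2 KO, against 0.5 and 0.57 TPM in WT. Slc47a1, a proton-coupled exporter of organic cations, reached 1 TPM in one group only, with 0.03 and 0.1 TPM in libraries labelled Tet2 KO, against 6.1 and 5.92 TPM in WT. Slc17a9, the vesicular nucleotide carrier, chosen after its values were seen, measured 55.5 and 69.7 TPM in libraries labelled Tet2 KO, against 3.3 and 3.33 TPM in WT. Slc17a9 was higher in both libraries labelled Tet2 KO than in either WT library (log2 change 3.87 ± 0.23 SE, limma adjusted p = 1.97e-09). Of 19 members at 1 TPM in both groups, 5 were called higher, 3 lower and 11 neither (-0.47 to 0.64), and 7 more reached 1 TPM only in libraries labelled Tet2 KO. Slc22a20, an organic anion family member, was the one member listed at 0 in both WT libraries, with 3.79 and 3.24 TPM in libraries labelled Tet2 KO. The median log2 change of the 19 was 0.05, and 0.62 with ERCC scaling. Of the others in this class, Slc23a2 and Slc18a2 (log2 changes of 0.86 and 1.12) were called higher, and Slc46a3 and Slc44a1 (log2 changes of -1.36 and -1.27) were called lower.

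Nucleotide sugar carriers, family 35, supply the Golgi apparatus and endoplasmic reticulum with activated sugars for glycosylation, and their sum differed little, at 515 and 548 TPM in libraries labelled Tet2 KO, against 516 and 510 TPM in WT. Slc35a1, the carrier of CMP-sialic acid, measured 4.99 and 4.66 TPM in libraries labelled Tet2 KO, against 11.9 and 11.6 TPM in WT. Slc35a1 thus lay below both WT values in both libraries labelled Tet2 KO (log2 change -1.13 ± 0.30 SE, limma adjusted p = 0.00567). Slc35b1, an exchanger of ATP and ADP in the endoplasmic reticulum, measured 50.8 and 63.01 TPM in libraries labelled Tet2 KO, against 95.3 and 90.7 TPM in WT. Slc35b1 was lower in libraries labelled Tet2 KO, with no overlap (log2 change -0.71 ± 0.20 SE, limma adjusted p = 0.00804). Both calls were lost with ERCC scaling, and that of Slc35b1 also without the abundance trend and robust estimation. Slc35d1, which carries UDP-glucuronic acid and UDP-N-acetylgalactosamine, measured 1.03 and 1.51 TPM in libraries labelled Tet2 KO, against 4.38 and 4.03 TPM in WT. Slc35d1 was lower in both libraries labelled Tet2 KO than in either WT library (log2 change -1.21 ± 0.29 SE, limma adjusted p = 0.00255). Slc35a5, a member of the same subfamily as Slc35a1, measured 42.03 and 32.5 TPM in libraries labelled Tet2 KO, against 12.3 and 13.4 TPM in WT. Slc35a5 thus lay above both WT values in both libraries labelled Tet2 KO (log2 change 1.46 ± 0.23 SE, limma adjusted p = 9.49e-05). Slc35g2, a family member, reached 1 TPM in one group only, with 2.37 and 2.41 TPM in libraries labelled Tet2 KO, against 0.39 and 0.07 TPM in WT. Of 20 members at 1 TPM in both groups, 4 were called higher, 5 lower and 11 neither (-0.63 to 0.53). The median log2 change of those 20 was -0.12, and 0.43 with ERCC scaling. Of the remaining family 35 members, Slc35c2 (a log2 change of 0.61), Slc35f5 and Slc35e1 were called higher. Slc35b4 and Slc35f6 (log2 changes of -0.71 and -0.63) were called lower.

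Some members that lie close to each other on a chromosome were called in opposite directions, and others differed in the same direction. Pairs were counted only between members that follow one another directly in the order of members along a chromosome. The 187 members include 15 such pairs within 200000 bases. On chromosome 1, Slc26a9 (log2 change 1.22, called higher), Slc41a1 (-1.63, called lower) and Slc45a3 follow one another. On chromosome 2, Slc35c2 (0.61, called higher) and Slc13a3 (-1.76, called lower) lie 117159 bases apart. In the same direction, Slc31a2 (2.65) and Slc31a1 (1.08) on chromosome 4 were both called higher. Slc6a13 and Slc6a12 on chromosome 6 were both high in libraries labelled Tet2 KO, as were Slc25a45 and Slc22a20 on chromosome 19. The other pairs among these 15 held a member not called. Exons of 48 members share bases with a gene on the opposite strand and those of 11 with one on the same strand, so the values of these are uncertain where the counting split their reads. Slc6a9, Slc7a7, Slc15a3, Slc16a6, Slc20a1, Slc25a18 and Slc25a37 are among those with a partner on the opposite strand.

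Genes that report amino acid supply to mTORC1, the growth-promoting kinase complex on lysosomes, moved both ways. The list holds 25 genes, of which 22 are in the table and 21 were tested. Of the 20 at 1 TPM in both groups, 7 were called higher and 6 lower, beside 19.6% and 25.3% of all such genes, with a median log2 change of 0.07. Rragb, a Rag protein, reached 1 TPM in WT only. Flcn, folliculin, which acts on the Rag proteins that bring mTORC1 to the lysosome, measured 141 and 134 TPM in libraries labelled Tet2 KO, against 23.97 and 24.2 TPM in WT. Flcn was higher in libraries labelled Tet2 KO, with no overlap (log2 change 2.46 ± 0.19 SE, limma adjusted p = 3.35e-08). Fnip1, its partner, measured 125 and 104 TPM in libraries labelled Tet2 KO, against 23.1 and 23.7 TPM in WT. Fnip1 was higher in both libraries labelled Tet2 KO than in either WT library (log2 change 2.24 ± 0.20 SE, limma adjusted p = 1.39e-07). Fnip2, another partner, measured 318 and 301 TPM in libraries labelled Tet2 KO, against 64.1 and 65.8 TPM in WT. Fnip2 thus lay above both WT values in both libraries labelled Tet2 KO (log2 change 2.23 ± 0.21 SE, limma adjusted p = 3.78e-07). Rragc, a Rag protein, measured 239.65 and 195 TPM in libraries labelled Tet2 KO, against 79.5 and 78.95 TPM in WT. Rragc was higher in libraries labelled Tet2 KO, with no overlap (log2 change 1.44 ± 0.22 SE, limma adjusted p = 5.16e-05). Sesn3, a sestrin, measured 2.02 and 2.84 TPM in libraries labelled Tet2 KO, against 15.3 and 13.1 TPM in WT. Sesn3 was lower in both libraries labelled Tet2 KO than in either WT library (log2 change -2.16 ± 0.32 SE, limma adjusted p = 3.82e-05). Nprl3, a subunit of the GATOR complex that restrains the Rag proteins, measured 3.6 and 3.35 TPM in libraries labelled Tet2 KO, against 11.5 and 10.5 TPM in WT. Nprl3 thus lay below both WT values in both libraries labelled Tet2 KO (log2 change -1.43 ± 0.31 SE, limma adjusted p = 0.00119).

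**Figure D5:**
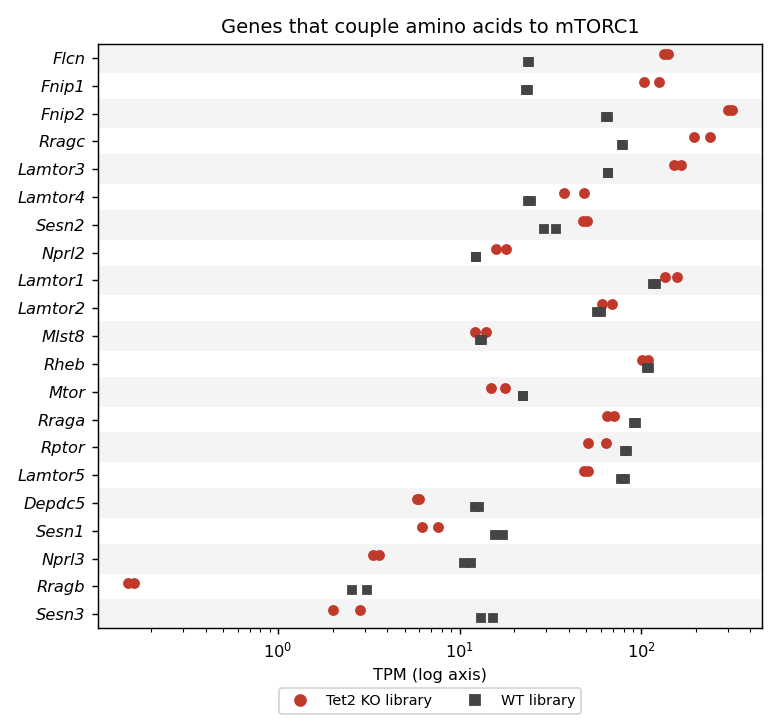
TPM on a log axis of the 21 tested genes of the mTORC1 list, sorted by log2 change, with red circles for libraries labelled Tet2 KO and dark squares for WT. The 7 genes called higher stand at the top, led by Flcn, Fnip1 and Fnip2, and Sesn3 stands at the bottom.

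Transporters and partners that do not carry an Slc name were counted too. Of 43 listed carriers with other names, 42 are in the table and 36 were tested. Of the 31 at 1 TPM in both groups, 10 were called higher and 6 lower, beside 19.6% and 25.3% of all such genes, with a median log2 change of 0.24. Ctns, the lysosomal exporter of cystine, measured 59.1 and 46.5 TPM in libraries labelled Tet2 KO, against 24.5 and 25.3 TPM in WT. Ctns was higher in libraries labelled Tet2 KO, with no overlap (log2 change 1.05 ± 0.21 SE, limma adjusted p = 0.000687). Unc93b1, which carries Toll-like receptors to endolysosomes, measured 183 and 171 TPM in libraries labelled Tet2 KO, against 504 and 503 TPM in WT. Unc93b1 was lower in both libraries labelled Tet2 KO than in either WT library (log2 change -1.504 ± 0.22 SE, limma adjusted p = 4.12e-05). Partner subunits and ion pumps numbered 18, of which 12 were tested, all at 1 TPM in both groups. Of these 12, 2 were called higher and 3 lower, beside 19.6% and 25.3% of all such genes. Their median log2 change was -0.24. Atp2b4, a plasma membrane calcium pump, measured 17.9 and 26.4 TPM in libraries labelled Tet2 KO, against 192 and 193 TPM in WT. Atp2b4 thus lay below both WT values in both libraries labelled Tet2 KO (log2 change -3.09 ± 0.23 SE, limma adjusted p = 6.02e-07). Bsg and Emb, the partners of the monocarboxylate carriers, were not called.

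The 2 libraries labelled Tet2 KO differed from each other for many of the members. Of the 31 called higher at 1 TPM in both groups, 23 were higher in replicate 1 than in replicate 2 (74.2%, against 60.0% of all such genes called higher). Of the 51 called lower, 39 were lower in replicate 1 (76.5%, against 81.2% of all such genes called lower). Slc27a4 and Slc31a2, at 375 and 258 and 406 and 273 TPM in those replicates, were among the members that differed more between them.

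Members at the edge of the expression threshold had second-highest values of 1.03 TPM (Slc35g1), 1.05 TPM (Slc23a3) and 1.08 TPM (Slc23a1). Just outside lay Slc25a34 at 0.99, Slc25a2 at 0.85 and Slc39a8 at 0.80 TPM. Without any filter on low values, 79 of the 82 calls among members at 1 TPM in both groups were lost, and the 3 left were Slc4a8, Slc6a8 and Slc25a4. A single read at 1000 bases of effective length is worth 0.0768 to 0.0792 TPM in libraries labelled Tet2 KO and 0.0906 to 0.1003 TPM in WT, so levels under 1 TPM rest on few reads.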

How the data were processed

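RNA of 4 libraries was measured by sequencing after a stranded mRNA kit, per the labels' protocols. The authors deposited TPM values per gene, made with STAR, RSEM and the mm10 build per the submitters' processing notes, which give no versions. The gene annotation is not stated. The table has 24589 rows, 92 of them ERCC spike-ins, which entered no test. TPM does not hold depth, so the TPM worth of 1 read was worked out from genes of 1 annotated transcript, whose lowest values fall in steps.

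R 4.3.3 and its package limma 3.58.1 gave the test of each gene, on log2 of TPM plus a pseudocount of 1, with an abundance trend, robust estimation and Benjamini-Hochberg adjustment, over genes at 1 TPM in at least 2 libraries. A fold change on this scale understates the change of low genes. The fit compared 2 samples labelled Tet2 KO with the mean of the WT libraries as 1 sample (1 residual degree of freedom), so the WT sample is assumed to vary as the others do. The fit was also run on simulated data, in which the WT sample was given the spread of the libraries labelled Tet2 KO. That run could not test this assumption. The members and gene lists were chosen with earlier results of these data known. Named members are textbook genes, those with the largest called changes of each class (4 per direction for amino acid and mitochondrial carriers, otherwise 2, with at least 2 TPM in the higher group) and the most abundant of each class; others named singly were chosen after their values were seen. Coordinates come from GENCODE M21 (mm10), with all 187 members matched, and promoters from RefSeq on GRCm38.p6, with 143 matched. Some members are counted but not reported by name here.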

Additional observations from a re-analysis of the deposited data

How the results depend on the processing

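No called member reversed under any alternative. Member counts here are over all 187, the 25 at 1 TPM in 1 group only included. Taking all 4 libraries as samples called 3520 genes higher and 4517 lower, with 65 and 73 members. The replicate numbers share only a number (correlation of same-numbered deviations -0.01, 2 pairs), and the fit with the replicate block called 3495 and 4461 genes, with 66 and 71 members. Leaving out 1 library called 2651 to 4321 genes higher and 3192 to 5674 lower, 44 to 71 members higher and 57 to 87 lower, with a member median of -0.13 to -0.03. The fits that leave out a library labelled Tet2 KO take their spread from the WT libraries alone, which gives the upper counts. With no filter 123 genes were called higher and 295 lower, with 3 and 3 members. Scaling to the ERCC total called 4942 and 1492 genes, 79 and 37 members, and moved the member median to 0.47. The remaining alternatives (pseudocount 0.1, filter of 5 TPM, no trend or robust estimation, quantile normalization, median centring) called 32 to 49 members higher and 52 to 57 lower. The 12 named members at 1 TPM in 1 group only have 152 values over the alternatives, with no test. Of these, 114 moved by less than the log2 standard deviation between the libraries labelled Tet2 KO. The other 38 moved further, and none reversed. Of 648 values of the 50 tested named members, 573 kept direction and call, 40 lost the call (35 with no filter), 33 gained it and 2 reversed. Slc38a1 was 0.56 with ERCC scaling (limma adjusted p = 0.0335). Slc6a6 was -0.15 without Tet2 KO replicate 1, against 0.31 without Tet2 KO replicate 2. The cause was not tested.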
